A study of Xenopus tropicalis with 11 samples.

Results

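Along the *X. tropicalis* chromosomes, 583 bins of 10 kb recovered less DNA with the Cenp-a antibody than their share of the input, in each of 3 replicates. All lie more than 5 Mb from both ends of their chromosome, but most lie within 20 Mb of an end. These bins were selected on the Cenp-a and input counts themselves. A bin was eligible when it lay more than 5 Mb from both ends of 1 of the 10 chromosomes and held at least 50 reads in every input library. It was kept when the ratio of Cenp-a to input CPM (counts scaled so that every library has the same total on the chromosomes) was at most 0.77 in replicates 1, 2 and 3. The rule kept 583 of 134433 eligible bins (0.434%), out of 144914 bins on the chromosomes and 145051 in the table.

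The study mapped where the centromeric histone Cenp-a sits in the genome, by native chromatin immunoprecipitation of mononucleosomes released with micrococcal nuclease (MNase). Cells were of the XTN-6 line, labelled wild type and of the NXR Nigerian strain, and all 11 libraries share that genotype. The labels also give a cell type of whole tadpole and stage NF 20, while the protocols describe cultured XTN-6 cells. Cenp-a was pulled down in replicates 1 to 3 with a rabbit antibody raised against the *X. laevis* protein, H4 in replicate 1, H3 in replicates 2 and 3, rabbit IgG in replicates 2 and 3, and input was sampled after preclearing in replicates 1 to 3. The series calls the replicates biological and the reporting summary of the paper calls them technical, so the spread between them may be technical only. All eligible bins outside the 583 are called other interior bins.

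Cenp-a replaces histone H3 in nucleosomes at centromeres and marks the place where the kinetochore forms. H3 and H4 are the histones of bulk nucleosomes, so their antibodies recover chromatin along whole chromosome arms. IgG measures DNA that binds beads or antibody without a specific target. Input is the MNase-released DNA that all pull-downs started from. These bins were chosen for low Cenp-a recovery away from the chromosome ends, so the question for them is whether the other pull-downs share it.

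Totals per library ran from 4053600 counts in IgG replicate 2 to 229872947 in Cenp-a replicate 3. The thinnest libraries over the 583 bins were IgG replicate 2, with a median of 31 counts per bin and as few as 1, and Cenp-a replicate 2, with a median of 68 and as few as 4. The median was 1222 counts in Cenp-a replicate 3 and 755 in IgG replicate 3. A single-bin ratio in replicate 2 is therefore much less exact than one in replicate 3.

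By the values that chose them, the 583 bins had median Cenp-a over input ratios of 0.634, 0.711 and 0.706 in replicates 1, 2 and 3, against 1.02, 0.993 and 1.01 in other interior bins. The mean of the 3 medians was 0.683 ± 0.043 (SD, n = 3) in the selected bins and 1.01 ± 0.014 in other interior bins. These values describe the selection and were given no test. The lowest ratios were 0.165, 0.196 and 0.247. The lower quartile was 0.561 in replicate 1, 0.648 in replicate 2 and 0.658 in replicate 3, so most of the set sits within a narrow band under the limit.

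The edge of that band is not a natural gap. The 3 selected bins just inside the limit each had a highest ratio of 0.7698 among replicates, and the 3 eligible bins just outside had 0.77003 to 0.77009. Just inside lay chr5:6200492-6210491, within alk (a receptor tyrosine kinase gene), with Cenp-a ratios of 0.727, 0.7698 and 0.736. Just outside lay chr1:196786204-196796203, within LOC116412442, with 0.657, 0.752 and 0.77003.

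Beside low Cenp-a, the bulk histone pull-downs were low in the same bins, and IgG was close to input. Median H4 over input in replicate 1 was 0.658 in the selected bins and 1.03 in other interior bins. Median H3 over input was 0.736 in the selected bins and 1.02 in other interior bins in replicate 3. In replicate 2, H3 was nearer to input, at 0.916 in the selected bins and 0.994 in other interior bins. IgG over input had medians of 1.01 (replicate 2) and 0.948 (replicate 3) in the selected bins, against 0.972 and 0.998 in other interior bins. Averaged over replicates, the medians were 0.7701 ± 0.132 for H4 and H3 (SD, n = 3) and 0.981 ± 0.047 for IgG (SD, n = 2) in the selected bins. Because each of these ratios shares its input library with the rule, they were given no test. A high input count in a chosen bin would push each of its ratios down, and how much it did so was not tested. IgG over input in replicate 2 was not lower than in other interior bins.

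**Figure D1:**
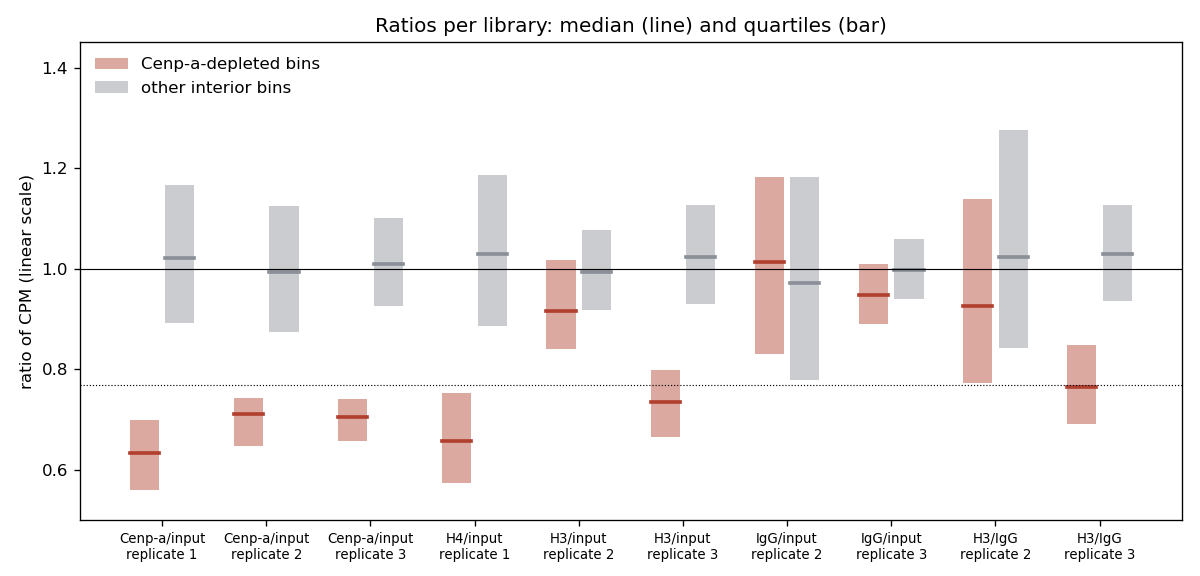
Ratios of CPM (y axis, linear) for each antibody over the input or IgG of the same replicate (x axis), with the median as a line and the quartiles as a bar. The 583 Cenp-a-depleted bins are red and other interior bins grey, the solid line marks a ratio of 1 and the dotted line the limit of 0.77. The red medians of Cenp-a, H4 replicate 1 and H3 replicate 3 lie between 0.634 and 0.736, while those of IgG over input lie at 1.01 and 0.948.

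Counted by bin, 462 of the 583 (79.2%) were at or under 0.77 for H4 over input in replicate 1, beside 10.0% of other interior bins. For H3 in replicate 3 the count was 384 (65.9%, beside 3.09%), and for H3 in replicate 2 it was 46 (7.89%, beside 1.76%). IgG in replicate 3 was at or under the limit in 11 of the selected bins (1.89%, beside 0.312%). IgG in replicate 2, with its few counts, was there in 109 (18.7%), fewer than the 24.0% of other interior bins. All 3 histone ratios were below 1 in 412 of the 583 bins, 2 of them in 169 bins and 1 in 2 bins. That joint count was not made in other interior bins. Singly, H4 in replicate 1 was below 1 in 98.8% of the selected bins, beside 44.9% of other interior bins. H3 was below 1 in 71.9%, beside 52.0%, in replicate 2, and in 99.7%, beside 43.3%, in replicate 3. IgG over input was below 1 in 71.7%, beside 50.9%, in replicate 3, about as often as H3 in replicate 2. In IgG replicate 2 it was below 1 in 48.7%, beside 53.8%. A histone ratio at or under 0.77 in all 3 replicates was found in 24 of the 583 bins and in 55 of 133850 other interior bins. H3 replicate 2 held this count down. According to the reporting summary of the paper, H3 replicate 2 and IgG replicate 3 gave no broad peaks in peak calling with MACS.

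Cenp-a did not run alongside the histones equally in each replicate. Cenp-a over H4 in replicate 1 had a median of 0.940 in the selected bins, and Cenp-a over H3 had 0.748 in replicate 2 and 0.948 in replicate 3. The matching medians in other interior bins were 0.992, 1.00 and 0.986. Cenp-a over input was below H4 over input in 367 of the 583 bins in replicate 1 (63.0%, beside 52.0% of other interior bins). It was below H3 over input in 573 bins in replicate 2 (98.3%, beside 49.9%) and in 422 in replicate 3 (72.4%, beside 55.9%). Among the selected bins, replicates 1 and 3 thus gave Cenp-a and histone ratios near each other, and replicate 2 did not. The rule held Cenp-a over input at or under 0.77 and put no limit on the histones, so part of each gap comes from the selection. In the 2610 bins chosen on replicates 1 and 3 alone, replicate 2 had medians of 0.868 for Cenp-a over input and 0.964 for H3 over input.

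Levels, rather than ratios, show which libraries carry more of these sequences. IgG, which the rule did not use, had median levels of 7.65 CPM (replicate 2) and 7.003 CPM (replicate 3) in the selected bins, against 5.92 and 5.90 CPM in other interior bins. The inputs, which it did use, had 8.11, 7.16 and 7.49 CPM in the selected bins, against 5.78, 5.94 and 5.91 CPM. IgG was close to input in these bins, so its level is not independent of the input counts that the rule used. H3 levels were 6.74 CPM in replicate 2 and 5.60 CPM in replicate 3, against 5.90 and 6.11 CPM, and H4 had 5.67 CPM against 6.05 CPM. Cenp-a levels were 5.18, 5.01 and 5.32 CPM in the selected bins, against 5.93, 6.04 and 5.99 CPM in other interior bins. By the median, the selected bins therefore held more reads than other interior bins in both IgG libraries, and fewer in all 3 Cenp-a libraries. By the mean, which the few bins with very high counts raise, Cenp-a had 7.10, 7.67 and 7.55 CPM in the selected bins, against 6.91, 6.88 and 6.92 CPM, and IgG had 11.3 and 10.7 CPM, against 6.76 and 6.79 CPM.

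To read a replicate that took no part in the choice, bins were selected on 2 replicates and measured in the third. Chosen on replicates 2 and 3, 868 bins had a median Cenp-a over input of 0.698 in replicate 1, against 1.02 in the bins not chosen, and 583 of them (67.2%) were at or under 0.77, beside 8.27%. In the same 868 bins H4 over input had a median of 0.710, against 1.03, with 65.4% at or under 0.77 beside 9.99%. Chosen on replicates 1 and 2, 1884 bins had 0.830 for Cenp-a in replicate 3, against 1.01, and 30.9% at or under 0.77, beside 2.60%. Their H3 over input was 0.857, against 1.03, and their IgG over input 0.991, against 0.998.

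Replicate 2 gave the weakest reading. Chosen on replicates 1 and 3, 2610 bins had a median Cenp-a over input of 0.868 in replicate 2, against 0.995, with 22.3% at or under 0.77, beside 9.68%. H3 over input was 0.964 in these bins, against 0.994, and IgG over input was 1.08, against 0.970. In each left-out replicate the chosen bins had a lower Cenp-a median and a lower histone median than the bins not chosen. With 3 replicates an exact two-sided test of such pairs cannot go below p = 0.25, so no p is given. The regression towards 1 from the selected replicates to the left-out one is part of any such selection. The bins not chosen were not matched for distance from an end. Of the chosen bins, 60.9% to 71.9% lay within 20 Mb of one. Other interior bins 5 to 20 Mb from an end had Cenp-a medians of 0.901, 0.964 and 0.917 in replicates 1, 2 and 3. Their H4 median was 0.909 in replicate 1, and their H3 medians were 0.990 and 0.942 in replicates 2 and 3. The chosen bins had lower medians than these too, but the gaps were smaller. How much distance adds was not tested.

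**Figure D2:**
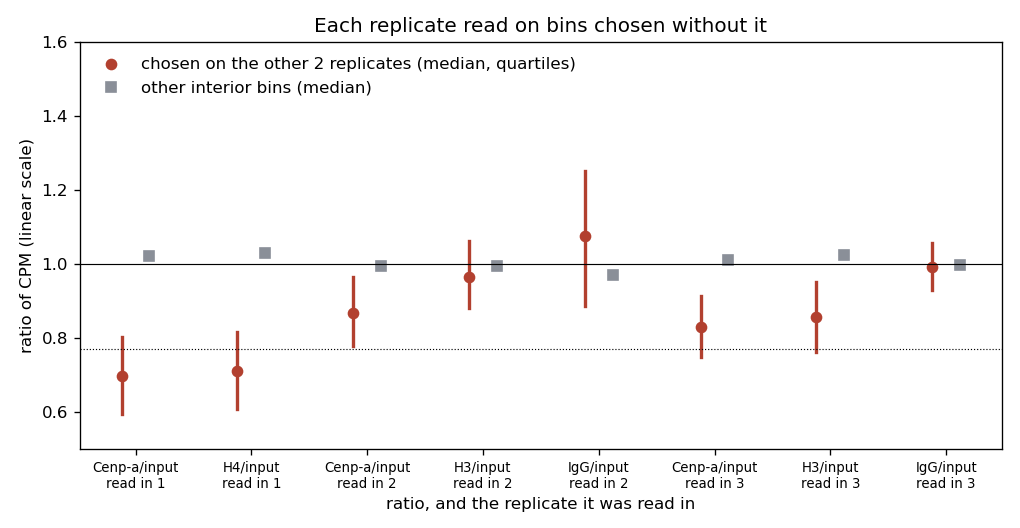
Ratios of CPM (y axis, linear) read in the replicate that was left out of the choice (x axis, measure and replicate). Red points and lines are the median and quartiles of bins chosen on the other 2 replicates, grey squares the median of other interior bins. Cenp-a medians of the chosen bins were 0.698, 0.868 and 0.830 in replicates 1, 2 and 3, and IgG medians were 1.08 and 0.991 in replicates 2 and 3.

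A comparison that uses none of the libraries behind the rule is H3 against IgG. It is still not independent of the rule, because IgG levels followed the input levels that the rule used. How much of the difference comes from that was not tested. H3 over IgG had median ratios of 0.927 (replicate 2) and 0.764 (replicate 3) in the selected bins, against 1.02 and 1.03 in other interior bins. The means were 0.845 ± 0.115 against 1.03 ± 0.003 (SD, n = 2). From 5 to 20 Mb from an end, the medians were 0.949 and 0.766, against 0.980 and 0.944 in other interior bins there. Beyond 20 Mb they were 0.874 and 0.758, against 1.04 and 1.05. The difference in replicate 2 was thus small near an end. The counts and fits that follow were not matched for distance. H3 was below IgG in 348 of the 583 bins in replicate 2 (59.7%, beside 46.8% of other interior bins) and in 562 in replicate 3 (96.4%, beside 41.9%). In the edgeR quasi-likelihood fit over 144710 bins, with the replicate as a block, the median log2 ratio of H3 to IgG was -0.29 in the selected bins and 0.02 over all bins tested. It was negative in 546 selected bins (93.7%), beside 45.7% of all bins. The median standard error of a single bin was 0.21 in the selected bins, close to the size of the difference.

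With Benjamini-Hochberg adjustment over all bins, that edgeR test called 2 of the 583 bins lower in H3 (adjusted p under 0.05), where the background was 0.00622% of all bins, and none higher, where it was 0.00138%. At an unadjusted p under 0.05, 167 (28.6%) were lower, where the background was 2.55%, and none was higher, where it was 2.29%. DESeq2 called 18 lower and none higher. Over all bins DESeq2 called 120 lower and 6 higher. The edgeR fit without the replicate block called none of the selected bins, and none of all bins, in either direction. Its median log2 ratio was -0.22 in the selected bins and 0.01 over all bins, with 93.5% of the selected bins negative, beside 46.5% of all bins. Fits that leave out 1 library could only be made without the block, so they are set against that fit. Leaving out H3 replicate 3 as well as the block gave a median log2 ratio of -0.09 and 67.9% negative, beside 48.9% of all bins. Leaving out IgG replicate 2 and the block gave a median of -0.20 and 91.6% negative, beside 46.7% of all bins. Leaving out H3 replicate 2 and the block gave a median of -0.40 and 95.5% negative, beside 45.2% of all bins. Leaving out IgG replicate 3 and the block gave a median of -0.26 and 71.7% negative, beside 46.7% of all bins.

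Both called bins lie on chromosome 1 and overlap no annotated gene. In chr1:31682456-31692455, Cenp-a had 76.5, 97.95 and 71.2 CPM in replicates 1 to 3, H4 had 95.5 CPM, H3 had 105.9 and 74.6 CPM in replicates 2 and 3, IgG had 150.8 and 138.5 CPM, and input had 193.6, 130.5 and 134.4 CPM. Every antibody to a histone was thus lower than every IgG and input library there. The log2 ratio of H3 to IgG was -0.71 ± 0.13 (SE, edgeR adjusted p = 0.00274). Its input stood 26.1 times above that of the median eligible bin, so it is also among the 4 selected bins with the most input.

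The other called bin was chr1:28581965-28591964. Cenp-a had 9.46, 11.9 and 9.12 CPM, H4 had 10.7 CPM, H3 had 14.1 and 9.72 CPM, IgG had 22.7 and 18.4 CPM, and input had 22.6, 15.9 and 16.9 CPM. The log2 ratio of H3 to IgG was -0.82 ± 0.16 (SE, edgeR adjusted p = 0.00639). Here too, no histone library reached the level of an IgG or input library. Neither bin was called without the block. With the block dropped and 1 library left out, both were called without H3 replicate 2, neither without H3 replicate 3 or without IgG replicate 2, and only chr1:28581965-28591964 without IgG replicate 3. In each of these fits both log2 ratios stayed negative.

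Among the 6 bins with the lowest geometric mean of the Cenp-a ratios, the deepest deficit was at chr9:13440983-13450982, which overlaps no annotated gene. Cenp-a had 1.01, 1.40 and 1.70 CPM (54, 19 and 390 counts), H4 had 1.51 CPM, H3 had 3.18 and 1.86 CPM, IgG had 1.97 and 4.52 CPM, and input had 6.13, 7.16 and 6.88 CPM. All pull-downs lay below all inputs in this bin, IgG included. The Cenp-a ratios were 0.165 (95% interval 0.121 to 0.220), 0.196 (0.116 to 0.311) and 0.247 (0.216 to 0.282), by the Clopper-Pearson method and for counting error only. IgG over input was 0.276 in replicate 2, from 8 counts, and 0.657 in replicate 3.

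The bin after it in that order was chr8:18281474-18291473, also outside genes, with Cenp-a ratios of 0.715, 0.209 and 0.537. Its value in replicate 2 rests on 4 Cenp-a counts, with an interval of 0.0550 to 0.562. Both chromosome 7 bins were outside genes. Their ratios were 0.561, 0.254 and 0.592 in chr7:11830983-11840982, with 6 Cenp-a counts in replicate 2, and 0.421, 0.4998 and 0.488 in chr7:123230312-123240311. The chromosome 7 bin at 123 Mb had H4 at 0.346, H3 at 0.975 and 0.650 and IgG at 1.61 and 0.851 of input. IgG replicate 3 stood between 0.851 and 0.978 of input in 4 of these 6 bins, and at 0.657 and 0.665 in the chromosome 9 bin and in the spef2 bin described next.

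Most of the selected bins stood alone. Of the runs of neighbouring members, 529 were single bins, 24 were pairs and 2 were triples. Members were a median of 0.48 Mb apart along a chromosome, and 115 of 573 gaps were under 0.1 Mb. Both triples are described here, with the 3 pairs that had the lowest geometric mean of the Cenp-a ratios. The lowest of these pairs was chr1:198546695-198566694. That pair lies in spef2, which in mammals is needed for the sperm flagellum and motile cilia. Its first bin had Cenp-a ratios of 0.438, 0.429 and 0.579, with H4 at 0.639 and H3 at 0.736 and 0.626 of input. Its second bin had Cenp-a ratios of 0.280, 0.489 and 0.593, with H4 at 0.319 and H3 at 0.625 and 0.324. IgG replicate 3 was low in both, at 0.571 and 0.665 of input, and 0.571 was the lowest such value among the 583 bins.

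A triple at chr5:152982767-153012766 lies in dnajc27, which encodes a small GTPase with a DnaJ domain. Cenp-a ratios in replicates 1, 2 and 3 were 0.535, 0.670 and 0.736 in its first bin. They were 0.4999, 0.469 and 0.764 in its middle bin and 0.497, 0.739 and 0.573 in its last bin. H4 over input was 0.956, 0.675 and 0.612 along the 3 bins, H3 in replicate 3 was 0.628, 0.734 and 0.621, and H3 in replicate 2 was 0.812, 1.05 and 0.898. IgG in replicate 3 kept to 0.945, 1.02 and 0.936, so in this gene Cenp-a and H3 in replicate 3 were low where IgG was not, and H4 was near input in the first bin.

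The other triple, chr8:10500492-10530491, covers the whole of LOC101734284 and touches ccdc180, a coiled-coil protein gene, and LOC100491408. Its middle bin was the lowest, with Cenp-a ratios of 0.423, 0.737 and 0.487, H4 at 0.557, H3 at 0.766 and 0.483 and IgG at 1.21 and 0.816. The first bin had Cenp-a ratios of 0.591, 0.701 and 0.759, and the last had 0.584, 0.752 and 0.610. Another pair lay at chr5:26171965-26191964, outside genes, where the Cenp-a ratios were 0.415, 0.646 and 0.598 in the first bin and 0.308, 0.586 and 0.539 in the second. In the pair at chr8:16340983-16360982, in LOC101730989, they were 0.385, 0.535 and 0.602, then 0.372, 0.730 and 0.594.

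Around a selected bin the Cenp-a medians rose at the first neighbouring bin, and stayed below 1 up to 10 bins away. One bin to the left, the Cenp-a medians were 0.838, 0.937 and 0.868 in replicates 1, 2 and 3, and one bin to the right they were 0.814, 0.928 and 0.848. At 10 bins to the left (100 kb) they were 0.884, 0.964 and 0.906, and at 10 bins to the right 0.917, 0.955 and 0.916. That is close to other interior bins 5 to 20 Mb from an end, where most selected bins lie, with medians of 0.901, 0.964 and 0.917. The neighbouring bins were not matched for distance from an end. H4 over input in the flanking bins was 0.818 and 0.813, and H3 in replicate 3 was 0.894 and 0.876. IgG over input in the flanking bins was 1.02 and 1.03 in replicate 2 and 0.993 and 0.990 in replicate 3. These flanking bins exclude members, and no position took part in the rule other than through its own ratios. The centre was held at or under 0.77 for Cenp-a, and its H4, H3 and IgG ratios share the input used by the rule. The step from centre to flank is therefore partly fixed by the selection, and the width of the deficit was not tested.

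**Figure D3:**
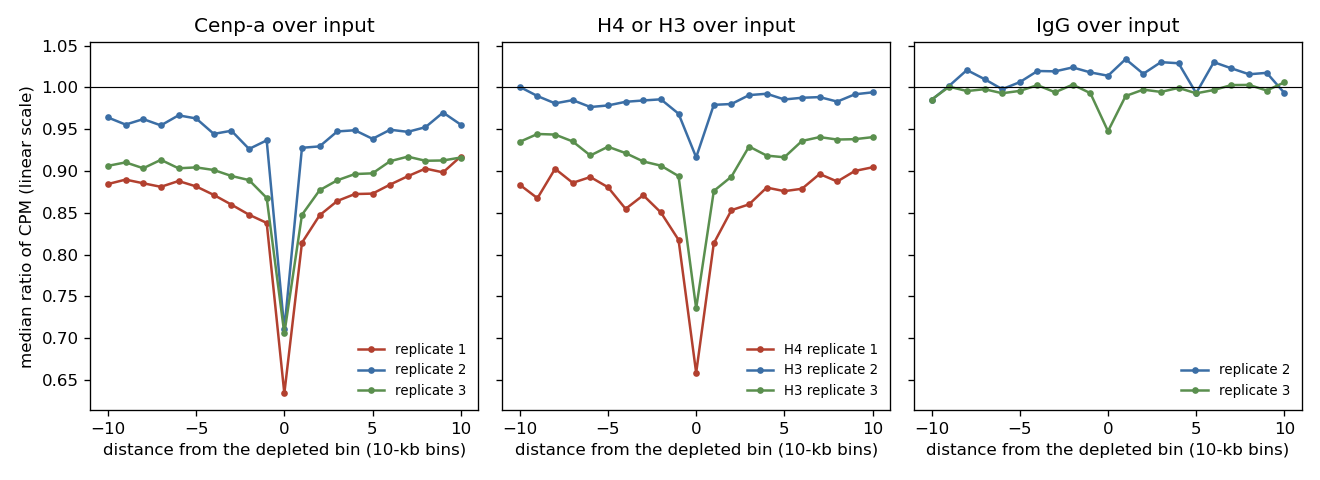
Median ratio of CPM over input (y axis, linear) at the 583 depleted bins (offset 0) and in non-member bins up to 10 bins of 10 kb away on each side (x axis), for Cenp-a (left), H4 and H3 (middle) and IgG (right), with a line for each replicate. Cenp-a medians rise to between 0.814 and 0.937 in the flanking bins, and IgG replicate 3 has 0.948 at the centre and 0.993 and 0.990 beside it.

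Where the bins lie was not part of the rule beyond the 5 Mb margin, and they were crowded towards the ends. Their median distance to the nearest end was 12.6 Mb, against 40.3 Mb in other interior bins. From 5 to 10 Mb, 222 of 9840 eligible bins (2.26%) were selected. The share was 195 of 19864 (0.982%) from 10 to 20 Mb, 57 of 19170 (0.297%) from 20 to 30 Mb, 63 of 51062 (0.123%) from 30 to 60 Mb and 46 of 34497 (0.133%) beyond 60 Mb. Bins within 20 Mb of an end made up 71.5% of the selected bins (Wilson 95% interval 67.7% to 75.04%, counting error only) and 22.1% of eligible bins. Neighbouring bins are not independent, so this contrast was given no test. Without chromosome 8 the first share was 68.8%.

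**Figure D4:**
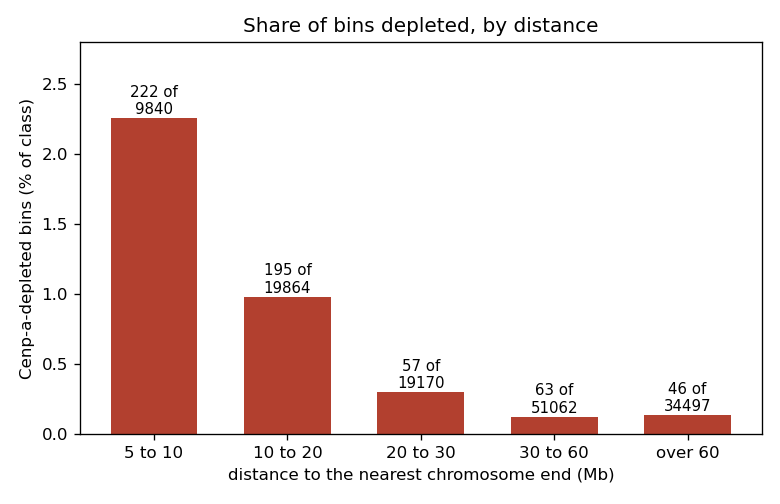
Share of eligible bins that were Cenp-a-depleted (y axis, percent) by distance to the nearest chromosome end (x axis, Mb), with the counts above each bar. The share is 2.26% from 5 to 10 Mb and 0.133% beyond 60 Mb.

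In bins the rule passed over, the median Cenp-a and histone ratios were also lower nearer the ends. These ratios are a different measure from the share of bins selected. From 5 to 20 Mb from an end, other interior bins had median Cenp-a ratios of 0.901, 0.964 and 0.917, an H4 ratio of 0.909, and H3 ratios of 0.990 and 0.942. Beyond 20 Mb they had Cenp-a ratios of 1.05, 1.00 and 1.03, an H4 ratio of 1.06, and H3 ratios of 0.995 and 1.05. IgG in replicate 3 was 0.998 in both, and in replicate 2 it was 1.01 within 20 Mb and 0.961 beyond. A fixed limit of 0.77 is thus closer to the typical bin near an end than to one further in. This difference in the ratios was largest for Cenp-a and H4 in replicate 1 and small for H3 in replicate 2.

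Selected bins near and far from an end differed in what else they were. The 417 within 20 Mb had median Cenp-a ratios of 0.641, 0.709 and 0.709, and the 166 beyond 20 Mb had 0.626, 0.714 and 0.698. These medians were alike, and the rule put the same upper limit on both sets. Other interior bins had Cenp-a medians of 0.901, 0.964 and 0.917 within 20 Mb, and 1.05, 1.00 and 1.03 beyond. Set against those bins, the deficit was thus larger beyond 20 Mb, least so in replicate 2. H3 over input in replicate 2 was 0.939 within 20 Mb and 0.873 beyond, and H4 was 0.658 and 0.659. IgG levels were 6.91 and 6.44 CPM in replicates 2 and 3 within 20 Mb, against 10.1 and 10.0 CPM beyond. A gene overlapped 57.6% of the selected bins within 20 Mb, beside 64.1% of other interior bins there, and 32.5% of those beyond, beside 62.1%. Further in, the selected bins were thus mostly outside genes and held more reads in IgG than the typical bin.

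The share of selected bins differed sharply with IgG level among the inner bins. The rule did not use IgG, but IgG replicate 3 followed input closely, with ratio quartiles of 0.940 and 1.06 in other interior bins. IgG level is therefore not independent of the input level, which the rule did use. Levels were taken in IgG replicate 3 relative to the median eligible bin. Beyond 20 Mb from both ends, 0.0513% of bins at 0.8 to 1.25 times that level were selected (35 of 68213), against 2.32% at 2 to 5 times (43 of 1855) and 4.02% above 5 times (19 of 473). From 5 to 20 Mb, the share was 1.05% at 0.8 to 1.25 times, 2.21% at 2 to 5 times and 1.52% above 5 times, and it was 2.26% under 0.8 times. Which sequences these bins hold was not analysed here.

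**Figure D5:**
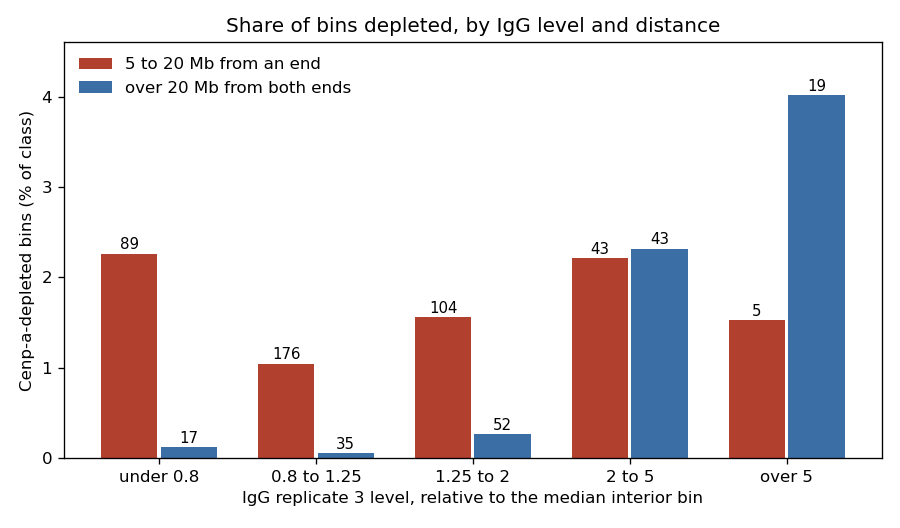
Share of eligible bins that were Cenp-a-depleted (y axis, percent) by their level in IgG replicate 3 relative to the median eligible bin (x axis), for bins 5 to 20 Mb from an end (red) and over 20 Mb from both ends (blue), with the number of depleted bins above each bar. The blue share is 0.0513% at 0.8 to 1.25 times and 4.02% above 5 times, and the red share stays between 1.05% and 2.26%.

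The selected bins with the most input were on chromosome 8, apart from the chromosome 1 bin already given. The strongest was chr8:13890983-13900982, outside genes, with an input 62.9 times that of the median eligible bin. Cenp-a had 177.4, 274.8 and 243.5 CPM there, H4 had 175.4 CPM, H3 had 394.5 and 248.3 CPM, IgG had 429.8 and 370.0 CPM, and input had 361.6, 358.5 and 388.4 CPM. H3 in replicate 3 sided with Cenp-a and H4, while H3 in replicate 2 stood above its input and below IgG of the same replicate. Its Cenp-a ratios were 0.491, 0.767 and 0.627, with 95% counting intervals no wider than 0.739 to 0.795. In chr8:14350983-14360982, which overlaps LOC101734249 in part, they were 0.564, 0.768 and 0.673, and in chr8:14900983-14910982 they were 0.522, 0.730 and 0.605.

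By chromosome, chromosome 8 held the most selected bins, 99 of 13618 (0.727%), and chromosome 2 the lowest share, 43 of 17056 (0.252%). Within 5 to 20 Mb of an end, 84 of 2926 bins of chromosome 8 (2.87%) were selected, while the other 9 chromosomes ranged from 0.769% on chromosome 10 to 1.59% on chromosome 7. The crowding was on the short arm. Of the 99 bins, 70 lay before the bin with the strongest Cenp-a signal of that chromosome, among 1577 eligible bins, and 29 lay after it. The last 20 Mb of the other arm held 18 selected among 1487 eligible bins. From 14 to 19 Mb, 34 of 452 eligible bins were selected (7.52%), 13 of them with a gene. The 3 densest 1-Mb windows of the genome were there, with 9 of 95, 8 of 92 and 7 of 85. This stretch was not among the planned positions and spans the densest windows, so its share is not independent of that choice. IgG replicate 3 had a median of 8.16 CPM in those 34 bins and 23.6 CPM in the other interior bins of the window, so this stretch as a whole held many reads.

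Distance from the centromere was read from the bin with the strongest Cenp-a signal on each chromosome. The nearest selected bin was 0.12 Mb away on chromosome 8 and 10.3 Mb away on chromosome 7. On 4 chromosomes (4, 5, 8 and 10) a total of 7 selected bins lay within 1 Mb of it. From 0 to 5 Mb, 30 of 9941 eligible bins were selected (0.302%), beside 0.434% of all eligible bins. It was 0.416% from 5 to 20 Mb, 0.338% from 20 to 60 Mb and 0.625% beyond 60 Mb. These classes were not separated by distance from a chromosome end, and 0.159% of eligible bins over 20 Mb from both ends were selected. The peak bin was found by its high Cenp-a over input and the rule asks for a low one, so the share near it is not independent of the rule.

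Over genes, 294 of the 583 bins (50.4%) overlapped an annotated gene, against 62.5% of eligible bins. A protein-coding gene was touched by 274 (47.0%, against 59.8%), a long non-coding RNA gene by 19 (3.26%, against 3.28%) and a pseudogene by 7 (1.20%, against 0.537%). Of those 7 bins, 3 lay in a single long pseudogene, LOC116406442, which spans 94 eligible bins. A single bin, on chromosome 6, held tRNA genes (trnak-uuu and copies of trnar-ucu), which is 0.172%, against 0.294% of eligible bins. A single bin, on chromosome 9, held the microRNA gene mir26-2 inside ctdsp1, which encodes a small phosphatase of the RNA polymerase II tail. For microRNA genes this is 0.172%, against 0.0997% of eligible bins. No selected bin overlapped a histone, hox, znf, protocadherin, keratin, olfactory receptor, immunoglobulin or MHC, hemoglobin, rRNA, snRNA or snoRNA gene by symbol or biotype. Most of those groups are small, with 22 eligible bins for histone genes and 545 for znf genes. The largest shares of eligible bins were 0.405% for znf, 0.308% for protocadherin and 0.162% for snRNA or snoRNA genes. All the others were at or under 0.0729%, the immunoglobulin or MHC share. At shares this small, finding none among 583 bins says little about any of these groups. The only symbol caught by the ribosomal protein list was rps6ka5, which encodes a protein kinase and not a ribosomal protein.

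The bins touched 298 genes, 27 of them in at least 2 bins, and 173 genes carried a symbol other than a LOC number. The most bins in 1 gene were 4 of the 55 eligible bins of LOC101730989 on chromosome 8 and 4 of the 89 of LOC116407773 on chromosome 9. LOC108645372 and LOC101734594, with 3 bins each, overlap LOC101730989 in span, so a bin can count for several of them. LOC101734284 had all 3 of its bins selected and dnajc27 had 3 of 8. The pseudogene LOC116406442 on chromosome 2 had 3 of 94, and phf24, a PHD finger protein gene, had 3 of 16.

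Among genes with 2 selected bins, the largest covered shares were in mllt11 (2 of 5 bins, chromosome 8), pianp (2 of 4, chromosome 7), il27ra (2 of 5, chromosome 3) and cspg5 (2 of 6, chromosome 6). In mammals pianp encodes a neural ligand of the paired receptor PILRA, il27ra a subunit of the interleukin-27 receptor, and cspg5 a brain chondroitin sulfate proteoglycan. The geometric mean of Cenp-a over input across the selected bins was 0.644 in mllt11, 0.633 in pianp, 0.685 in il27ra and 0.667 in cspg5. It was 0.616 in LOC101734284, 0.599 in dnajc27 and 0.738 in phf24, all inside the range that the rule allows. The gene table gives only gene limits, so whether a bin covers exons or introns was not analysed here.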

How the data were processed

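Native ChIP and input libraries of *X. tropicalis* were analysed from the deposited raw counts of reads per 10-kb bin. According to the submitters' processing notes and the paper's methods, the authors made these counts by trimming with Trimmomatic 0.39, aligning to the unmasked v10 genome (UCB_Xtro_10.0) with minimap2 2.17-r941, sorting with SAMtools 1.9 and counting with deepTools 3.3.0 multiBamSummary at a mapping quality of at least 0. Reads from repeats are thus placed at 1 of several equal positions, and removal of duplicates was not given in the sources used here. Peak lists were not used.

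Counts were scaled to CPM by each library's total on the 10 chromosomes. Between 0.0559% and 0.0704% of counts lay on 47 unplaced scaffolds and were left out of the scaling. Ratios were taken within a replicate number. H3 was tested against IgG with edgeR 4.0.16 (R 4.3.3; glmQLFit, robust, glmQLFTest, replicate as a block, at least 10 counts in at least 2 of 4 libraries, Benjamini-Hochberg over all tested bins), on totals over the chromosomes; the code was tested on simulated data. Same-numbered H3 and IgG libraries deviated together only weakly (correlation 0.042 over 144608 bins), and the block was kept because the study compares libraries of 1 replicate. Alternatives were other scalings, input minima, ratio limits, margins and pairings, DESeq2 1.42.0, other filters and leaving out each replicate or library. Chromosome numbers follow the order of the sequence names and were checked against the gene table (ends within 182731 bp). Gene symbols and limits come from RefSeq on the same assembly.

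Named positions were the 6 lowest bins by geometric mean, the 5 longest runs (both triples, and pairs ranked by the lowest geometric mean), the 3 bins on each side of the limit, the 4 with the most input and those called in H3 against IgG. Named genes were the 12 that overlap the most bins and those at named positions, to which the tRNA, microRNA and rps6ka5 bins were added after their values were seen. The members and lists were chosen with earlier results of these data known. Intervals cover counting error only.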

Additional observations from a re-analysis of the deposited data

How the results depend on the processing

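The number of selected bins depends on the limit and on the replicates required. It was 105 at a ratio limit of 0.7, 3035 at 0.85, 360 beyond 10 Mb from both ends and 970 when each Cenp-a library was divided by the mean of the 3 inputs, with no replicate pairing. Of those 970 bins, 431 were among the 583. With each replicate left out of the rule in turn, the number ranged from 868 to 2610. Median scaling gave 812, TMM factors 519, an input minimum of 20 gave 600 and one of 200 gave 485. The median H4 and H3 ratios moved by less than 0.132 under every such setting. That value is the SD over the H4 median and both H3 medians, so it mixes antibodies and is wide. Without replicate 3 in the rule, H3 over input in replicate 3 went from 0.736 to 0.857, and H4 over input in replicate 1 from 0.658 to 0.750. Leaving out replicates, IgG over input in replicate 2 ranged from 0.967 to 1.08. The share of bins within 20 Mb of an end, whose alternatives were chosen after seeing the data, was 53.9% when only bins beyond 10 Mb were eligible and ranged from 60.9% to 71.9% with a replicate left out.

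Bins called lower in H3 against IgG numbered 18 with DESeq2, beside 120 of all bins, and DESeq2 set 435 of the 583 adjusted p-values to NA. Without the replicate block (paired design) they numbered 0, beside 0 of all bins. For bins chosen at limits of 0.7 and 0.85, the main fit called 0 of 105 and 5 of 3035 lower, beside 9 of all 144710 bins tested. With 1 library left out and the block dropped as well, they ranged from 0 to 11 (9 without IgG replicate 3), and bins called higher from 0 to 1. At an unadjusted p under 0.05 the lower bins numbered 109 without the replicate block, 40 where at least 1.5-fold was also required, 40 and 567 at limits of 0.7 and 0.85, and 17 to 150 with 1 library and the block left out, and the higher ones 0 to 10. Without IgG replicate 3, the thinnest library stands alone for IgG. Depth limits single-bin ratios in Cenp-a and IgG replicate 2 most.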
